A study of Mus musculus with 6 samples.

Results

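The genes described here encode the proteins of the mitochondrial ribosome. They were taken as all rows of the gene table whose symbol is Mrpl (large subunit) or Mrps (small subunit) followed by a number and at most 1 letter. The rule found 77 of 11108 listed genes, 48 of them Mrpl and 29 Mrps, and the name alone chose them. RNA-seq was done on hematopoietic stem cells of mouse bone marrow, which maintain the blood system, in 3 wild-type (WT) and 3 Mcph1-/- libraries. The cells were lineage-negative, carried Sca-1, c-kit and CD150, and lacked CD34. The Mcph1-/- mice carry a disrupted Mcph1, the gene for microcephalin, and neither genotype was treated. The labels give no age, strain or targeting scheme for the mice. They also leave unsaid whether libraries come from different animals, so the p-values rest on a spread that may be technical. Each library was made from 200 sorted cells by Smart-seq2, which copies whole transcripts into cDNA from a few cells.

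Mitochondria keep a small genome of their own that encodes core subunits of the respiratory chain and the ATP synthase, and the mitochondrial ribosome translates these messages inside the organelle. Its RNAs come from the mitochondrial genome, but all of its proteins are encoded in the nucleus, made in the cytosol and imported. The small subunit holds the messenger RNA and reads its codons, while the large subunit joins the amino acids and releases the new chain at the inner membrane. Part of the proteins take the places of bacterial ribosomal proteins, and the rest sit at places that only the mitochondrial ribosome has. Loss of mitochondrial translation is known to impair respiration, and stem cells of the blood are known for a low reliance on respiration while they are quiescent.

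Libraries held 8102605 to 8655123 assigned reads in WT and 9464810 to 10455908 in Mcph1-/-, and values are normalised read counts, meaning reads divided by 1 size factor per library. All 15 stem cell markers in the marker list were read, but markers of other cell types were read too, at levels that differed between the genotypes for some lists. The summed level of 7 neutrophil markers was 58564 to 67847 in WT and 3287 to 18724 in Mcph1-/-, with 3 of the 7 called lower, and a further 8 markers of that list are not analysed here. The summed level of 13 erythroid markers was 20263 to 42194 in WT and 52651 to 58832 in Mcph1-/-, with 1 called higher, and that of 19 proliferation genes was 8155 to 8942 against 17173 to 18906. Of the other lists, 3 monocyte markers summed to 7872 to 12700 in WT and 4436 to 4792 in Mcph1-/-, 4 lymphoid markers to 1277 to 3998 and 909 to 4249, and 7 megakaryocyte markers to 1989 to 5035 and 1389 to 2670. Their part in the results below was not tested, and in bulk samples a change in the kinds of cells present cannot be told apart from a change in RNA per cell. Mcph1 itself stood at 160.5, 341 and 34.4 in WT replicates 1 to 3 and at 428, 37.7 and 234 in Mcph1-/- replicates 1 to 3, a log2 difference of 0.33 (SE 1.25; adjusted p = 0.958, limma), so its count does not check the genotype and each direction below rests on the labels.

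All 77 listed mitochondrial ribosomal protein genes passed the filter on low values (a mean of at least 10), so none of the 77 was lost at that filter. Every listed gene was read in 4 or more libraries, so that these were read is no result about them. As a group they were well expressed. Their median level was 720.3 normalised read counts per kb of exon, against 94.99 for all tested genes, and the large subunit genes (median 767) were somewhat above the small subunit genes (median 589). Levels spanned 77.6 per kb for Mrps5 to 6258 per kb for Mrpl42. Genes whose proteins take the place of a bacterial ribosomal protein (called counterparts here) had a median of 931 per kb over 45 members, and those of proteins at places particular to mitochondria (called mitochondria-specific) 564 per kb over 31 members. The genes of the 10 mitochondria-specific proteins of the small subunit had the lowest median of the 4 classes, at 385 per kb.

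**Figure D1:**
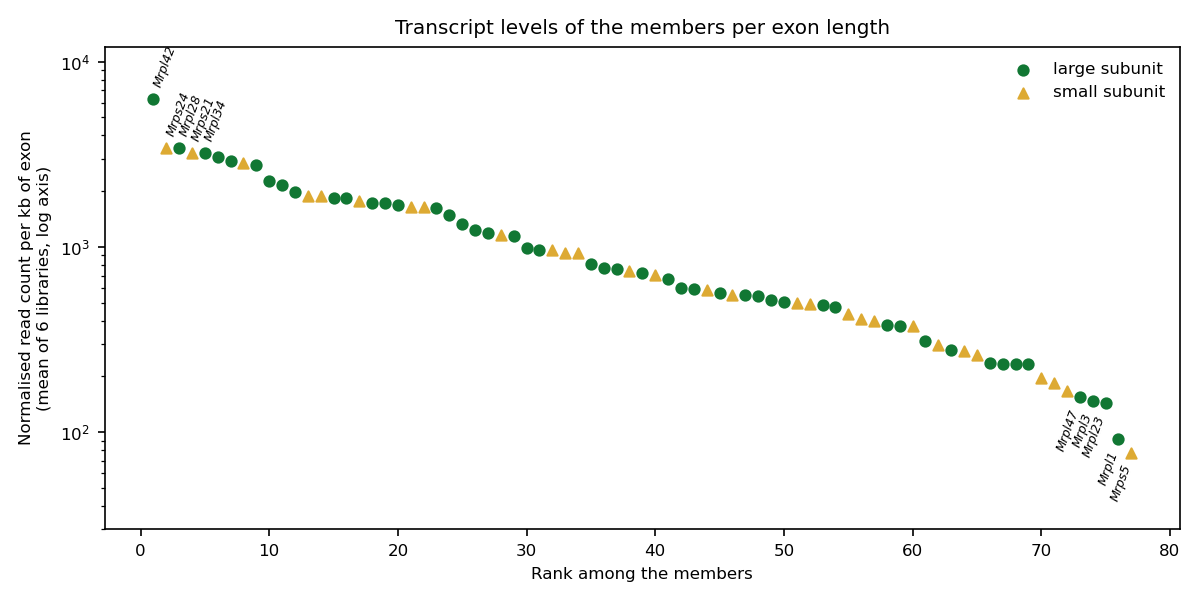
Each point is 1 of the 77 genes, placed by its rank (x axis) and its normalised read count per kb of exon, the mean of 6 libraries, on a log axis (y axis). Circles are large and triangles small subunit genes, and the 5 highest and 5 lowest are named. Mrpl42 stands at 6258 per kb, above the next gene, Mrps24, at 3417 per kb.

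Mrpl42, a mitochondria-specific protein of the large subunit, was the highest gene per kb. It was read at 4987, 4387 and 4216 in WT and 3717, 3699 and 4488 in Mcph1-/-, so the groups overlapped, and the log2 fold change, Mcph1-/- over WT throughout, was -0.19 (SE 0.16; adjusted p = 0.751, limma). Its rank depends on the exon length used. Over the exons of all annotated transcripts Mrpl42 stood at 1154 per kb, below Mrpl34 (3197) and Mrpl28 (2637). The near-identical copy of Mrpl42, Gm6419, had a mean of 914 against 4249 for Mrpl42. Over the exons of protein-coding transcripts, next among large subunit genes came Mrpl28 at 3408 per kb and Mrpl34 at 3197 per kb, both counterparts of bacterial proteins. Mrpl28 was read at 2677, 5788 and 2014 in WT and at a near-constant 3792, 3936 and 3628 in Mcph1-/-. Mrpl34 was read at 2126, 2090 and 1316 in WT and at 2094, 2144 and 1872 in Mcph1-/-. Both groups overlapped for each of them, with log2 fold changes of 0.26 (SE 0.35) and 0.17 (SE 0.24), and without WT replicate 3 these were -0.057 and -0.052.

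In the small subunit the highest genes per kb were Mrps24 (3417), Mrps21 (3216) and Mrps12 (2852), all counterparts of bacterial proteins; Mrps12 is the homolog of the bacterial protein at which streptomycin resistance mutations map. Mrps24 was read at 3618, 4417 and 3012 in WT and at 3099.7, 3422 and 2830.2 in Mcph1-/-. Mrps21 was read at 1644, 2155 and 1411 in WT and at 1458, 1417 and 1407 in Mcph1-/-. Mrps12 was read at 3733, 2745 and 1566 in WT and at 3044, 2266 and 2611 in Mcph1-/-. All 3 pairs of groups overlapped, and the log2 fold changes were -0.23 (SE 0.20), -0.26 (SE 0.23) and 0.055 (SE 0.32). The sign for Mrps12 turned to -0.024 with DESeq2 and -0.29 without WT replicate 3.

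The 2 lowest genes per kb of each subunit were Mrpl1 (92.1) and Mrpl23 (144) in the large and Mrps5 (77.6) and Mrps2 (167) in the small subunit. Mrpl3 (147) and Mrpl47 (154) lay between Mrpl23 and Mrps2. Over the exons of all annotated transcripts Mrpl23 was the lowest, at 28.4 per kb, and Mrps5 stood at 52.8 per kb. Mrpl1 was read at 156, 428 and 322 in WT and at 578, 190.3 and 699 in Mcph1-/-, with a spread within each group wider than the gap between their means. Mrpl23 was read at 337, 129.8 and 68.8 in WT and at 132, 132 and 32.1 in Mcph1-/-, with a log2 fold change of -0.80 (SE 1.10; adjusted p = 0.855, limma). The pseudogene Mrpl23-ps1, identical to Mrpl23 over 421 aligned coding bases, had a mean of 3603 against 139 for Mrpl23, so reads of the protein-coding gene may have been assigned to the copy and the level of Mrpl23 is uncertain. Mrps36, at 271, 121 and 69.8 in WT and 114, 122 and 79.5 in Mcph1-/-, is in a like position, with a mean of 129.5 beside 369.9 for its copy Mrps36-ps1. In all, 17 members have a near-identical copy in the genome, and for 10 of them at least 1 copy is listed in the table.

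The comparison asked whether these genes differ between the genotypes. No member was called by limma at an adjusted p below 0.05 (lowest adjusted p = 0.540), nor by edgeR or limma-voom, and DESeq2 called 1; by limma, 4 of 10846 tested genes were called (0.0369%), 1 higher (0.00922%) and 3 lower (0.0277%). At an unadjusted p below 0.05, 7 of 77 members (9.09%) were found, against 7.71% of all tested genes. All 7 were higher in Mcph1-/-, a direction in which 4.16% of all tested genes were found, while no member was found lower, against 3.55% of tested genes. The 7 were Mrpl50, Mrpl46, Mrpl20, Mrpl15, Mrpl52 and Mrpl36 of the large subunit and Mrps22 of the small subunit.

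By sign, 51 of 77 members were higher in Mcph1-/- (66.2%), against 53.8% of all tested genes, with a median log2 change of 0.15 against 0.076. With DESeq2, which has the same size factors but fits counts in place of log values, the median of all genes was 0.102 lower, at -0.025. There 48 of 77 members were higher, in place of 51. The share of all tested genes that were higher was 48.6%, in place of 53.8%. The members were less spread than genes at large: the quartiles of their log2 fold changes were -0.15 and 0.43, against -0.48 and 0.81 for all tested genes, and 9.09% moved by more than 1 on the log2 scale against 34.5%. Spread depended on level, since 57.1% of tested genes with a mean under 100, but 2.26% of those over 2000, moved that far. Among the 41 members with a mean of 1000 to 2000, 28 were higher (68.3%) and the median was 0.13, against 50.3% and 0.00217 for the 1141 tested genes in the same range. The 3 Mcph1-/- values all exceeded the 3 WT values for 8 members (10.4%), against 7.40% of tested genes, and lay below them all for 3 members (3.90%), against 6.80%. The 8 were Mrpl50, Mrpl46, Mrpl20, Mrpl15, Mrpl52, Mrpl12, Mrpl47 and Mrps5, and the 3 were Mrps7, Mrps33 and Mrpl48.

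**Figure D2:**
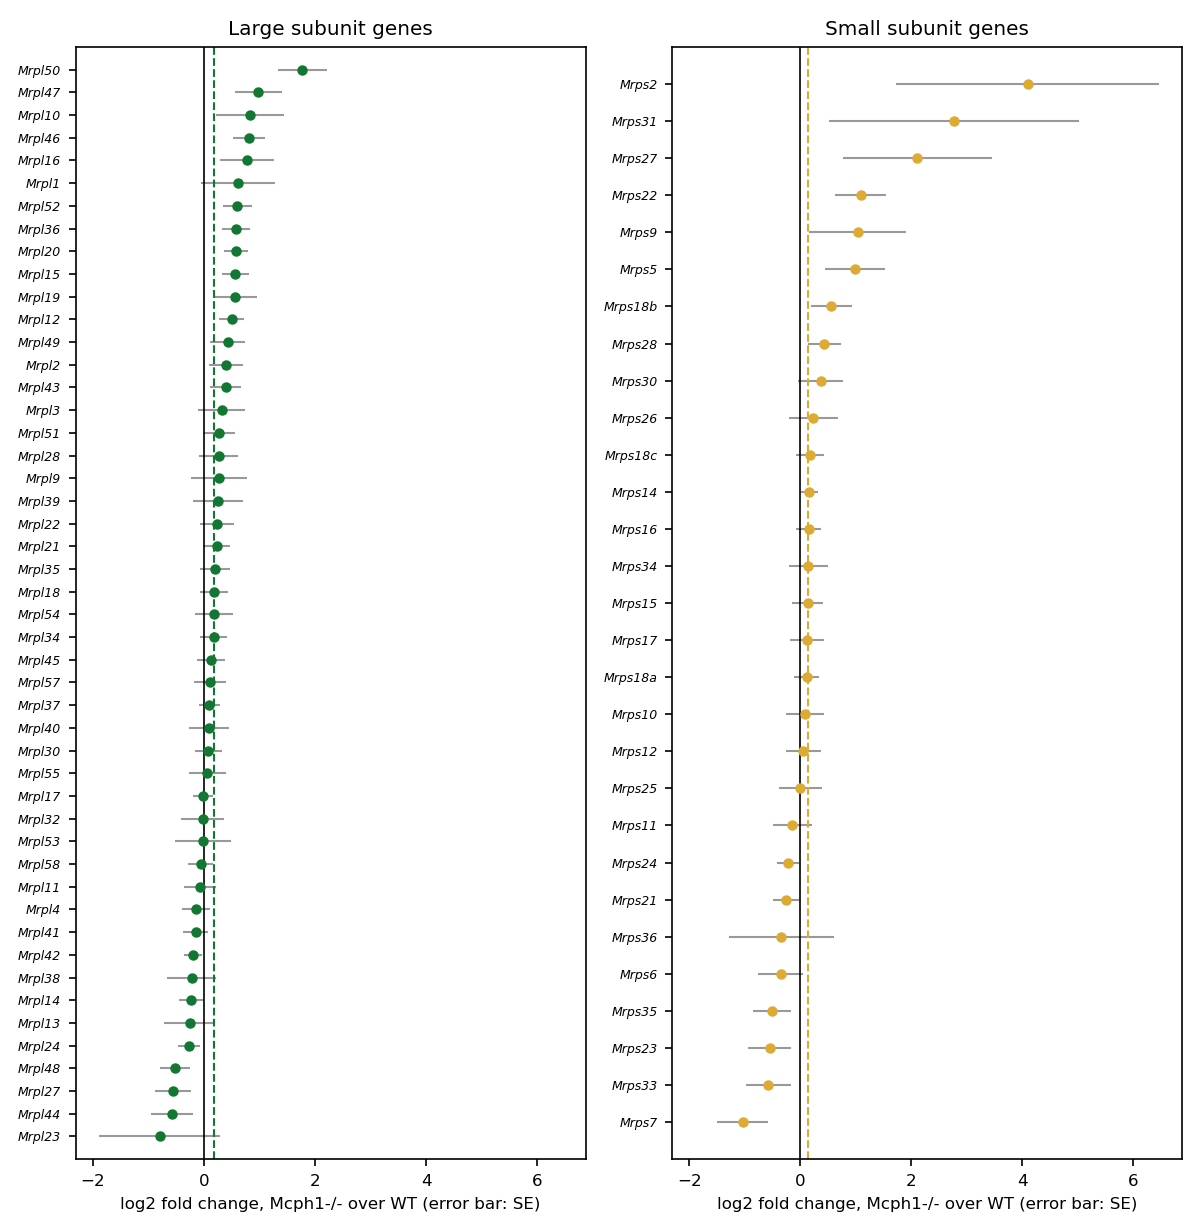
Each point is the log2 fold change of 1 gene (x axis), with its SE as the error bar, for the 48 large (left) and 29 small subunit genes (right), sorted by fold change; the solid line is 0 and the dashed line the group's median. Most points lie within 1 of 0, the medians are 0.18 and 0.13, and Mrps2, Mrps31 and Mrps27 carry the widest error bars.

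The large and the small subunit gave much the same picture by sign and median. In the large subunit 32 of 48 genes were higher (median log2 fold change 0.18), and in the small subunit 19 of 29 (median 0.13). With all libraries, the members with the smallest p fell mainly in the large subunit. There 6 of 48 (12.5%) had an unadjusted p below 0.05 (limma), against 1 of 29 (3.45%) in the small subunit and 7.71% of all tested genes. This did not hold in every setting, since most of the 12 members found without WT replicate 1 were small subunit genes. These were Mrps2, Mrps5, Mrps7, Mrps23, Mrps27, Mrps34 and Mrps35. With all libraries, changes of more than 1 on the log2 scale were more frequent in the small subunit, with 6 of 29 genes, than in the large, with 1 of 48. That contrast was not seen in the ratio of group means, which passed 2-fold for 2 large subunit genes (Mrpl47 and Mrpl50) and 1 small subunit gene (Mrps22). The other 5 small subunit genes (Mrps2, Mrps7, Mrps9, Mrps27 and Mrps31) passed only on the log scale, where a low library weighs more. When Mrps18a and Mrps30, whose proteins sit in the large subunit despite their names, were moved there and Mrps36, now known as a subunit of the 2-oxoglutarate dehydrogenase complex, was left out, the medians were 0.18 over 50 genes and 0.14 over 26. Counterparts of bacterial proteins had 31 of 45 genes higher (median 0.17), and mitochondria-specific proteins 20 of 31 (median 0.13).

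Summed over genes, the large subunit took 0.773%, 0.826% and 0.733% of each WT library and 0.888%, 0.827% and 0.912% of each Mcph1-/- library. By this share the groups did not overlap, but WT replicate 2 and Mcph1-/- replicate 2 nearly met. As summed normalised read counts the groups did overlap, since WT replicate 2 lay above Mcph1-/- replicate 2. These sums were 67878.5, 71927 and 64231.9 in WT and 76658.8, 70928.7 and 77189.7 in Mcph1-/-. The small subunit took 0.463%, 0.465% and 0.405% in WT and 0.461%, 0.467% and 0.448% in Mcph1-/-, and these groups overlapped. The ratio of large to small subunit sums was 1.67, 1.78 and 1.81 in WT and 1.93, 1.77 and 2.03 in Mcph1-/-, also with overlap, since Mcph1-/- replicate 2 lay within the WT range.

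Mrpl50, a mitochondria-specific protein of the large subunit (chromosome 4 from 49512596 to 49521093, minus strand, mm10), had the smallest p of all members. It was read at 735, 529.5 and 224 in WT and at 1481, 1557 and 1523 in Mcph1-/-. All Mcph1-/- libraries lay close together and above every WT library. The log2 fold change was 1.77 (SE 0.44; adjusted p = 0.540, limma, unadjusted p = 0.0037). DESeq2 on the recovered reads gave 1.61 and called the gene (adjusted p = 0.0069), the single member it called, where DESeq2 called 4.36% of the 5369 genes to which it gave an adjusted p. Over all 17 settings run, the adjusted p of Mrpl50 ranged from 0.0069 to 0.858, and outside DESeq2 the lowest was 0.205.

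Mrpl46, another mitochondria-specific protein of the large subunit, was read at 809, 837 and 694 in WT and at 1897, 1263 and 1064 in Mcph1-/-. The groups did not overlap, and the log2 fold change was 0.81 (SE 0.30; adjusted p = 0.626, limma). Mrpl20, the counterpart of a bacterial protein needed early in large subunit assembly, was read at 1421, 1419.7 and 1233 in WT and at 1759.7, 1941 and 2395 in Mcph1-/-. It showed no overlap either, and its log2 fold change was 0.57 (SE 0.22; adjusted p = 0.626, limma). Mrpl15 was read at 1598, 1294 and 1102 in WT and at 1631, 2235 and 2034 in Mcph1-/-, where the highest WT and the lowest Mcph1-/- library nearly met (log2 fold change 0.57, SE 0.24).

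Mrpl52, mitochondria-specific, was read at 1109, 1397 and 908 in WT and at 2021, 1472 and 1654 in Mcph1-/-, without overlap (log2 fold change 0.60, SE 0.26). Mrpl36, the counterpart of a small zinc-binding bacterial protein, was read at 2263, 2500 and 1582 in WT and at 3559.5, 2431 and 3420.4 in Mcph1-/-. Here WT replicate 2 lay above Mcph1-/- replicate 2, so the groups overlapped (log2 fold change 0.57, SE 0.25). The adjusted limma p was 0.644 for Mrpl15 and 0.646 for both Mrpl52 and Mrpl36. Of the exons of Mrpl36, 30 bases overlap Ndufs6, and with no strand setting given reads there may belong to either gene.

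**Figure D3:**
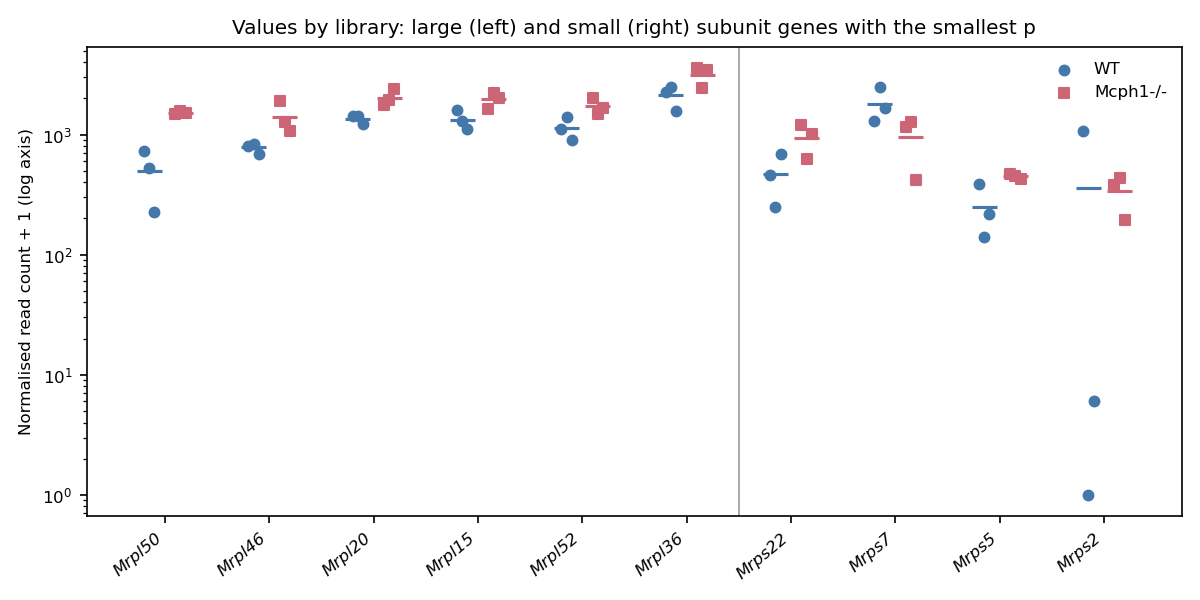
Normalised read count plus 1 on a log axis (y axis) for the 6 large and 4 small subunit genes with the smallest p (x axis). Circles are WT and squares Mcph1-/- libraries, 3 each, and bars are means. The 3 Mcph1-/- values of Mrpl50 lie between 1481 and 1557 and above all WT values, while Mrps2 has 1 high WT value and WT values of 0 and 5.06.

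In the small subunit, Mrps22 had the smallest p. This mitochondria-specific protein, in which human mutations cause respiratory chain disease, was read at 463, 249 and 682 in WT and at 1209, 623 and 1001 in Mcph1-/-. The groups overlapped through WT replicate 3 and Mcph1-/- replicate 2, and the log2 fold change was 1.08 (SE 0.46; adjusted p = 0.646, limma). Mrps7, the counterpart of a bacterial protein that binds the ribosomal RNA early in small subunit assembly, was the member with the most negative fold change. It was read at 1285, 2471 and 1678 in WT and at 1159, 1265 and 419 in Mcph1-/-, all below WT but by little for Mcph1-/- replicate 2 (log2 fold change -1.04, SE 0.46; adjusted p = 0.654, limma). Without Mcph1-/- replicate 3 its log2 fold change was the least negative of the leave-one-out fits, -0.53. Exons of Mrps7 overlap 2 other genes over 246 bases, among them Gga3.

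Mrps5 was read at 386, 138 and 216 in WT and at 469.8, 447 and 429 in Mcph1-/-, without overlap, and gave a log2 fold change of 0.99 (SE 0.54; adjusted p = 0.666, limma). Its near-identical copy Gm13328 was read at 0, 52.5 and 74.9 in WT and at 142, 133 and 126 in Mcph1-/-. Mrps2, the counterpart of a bacterial protein on the solvent side of the small subunit, had WT values far apart. It was read at 1066, 0 and 5.06 in WT and at 379, 436 and 193 in Mcph1-/-. The group means, 357 and 336, were close, but the fit on log values gave 4.09 (SE 2.36; adjusted p = 0.678, limma), and with edgeR and TMM scaling the value was -0.061. Mrps31 was read at 0, 617 and 596 in WT and at 421, 597 and 466 in Mcph1-/-, and its log2 fold change of 2.77 (SE 2.25) became -0.31 without WT replicate 1. A library with 0 reads still allows a normalised read count of up to 3.09 in WT replicate 2 (Mrps2) and 3.25 in WT replicate 1 (Mrps31), which covers counting error only. Mrps27 had a further low value, 16.2 in WT replicate 3.

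Of the other members without overlap, Mrpl12, which in bacteria has a counterpart on the flexible stalk that recruits translation factors, was read at 1502, 2354 and 1818 in WT and at 2862, 2409 and 2619 in Mcph1-/- (log2 fold change 0.50, SE 0.22; adjusted p = 0.655, limma). Mrpl47 was read at 259, 355 and 417 in WT and at 458, 713 and 905 in Mcph1-/- (0.98, SE 0.43; adjusted p = 0.651, limma). Exons of Mrpl47 overlap 2 other genes over 1068 bases, among them Ndufb5, and those of Mrpl12 overlap Gm16755 over 200 bases. Without strand both counts are uncertain. On the lower side, Mrpl48 was read at 1632, 1192 and 1097 in WT and at 975, 767 and 952 in Mcph1-/- (-0.53, SE 0.27; adjusted p = 0.662, limma). Its copy Mrpl48-ps was read at 1081, 966 and 796 in WT and at 614, 563 and 799 in Mcph1-/-, so a read may belong to either and the level of Mrpl48 is uncertain. Exons of Mrpl48 also overlap Rab6a over 708 bases. Mrps33 was read at 592, 454 and 411 in WT and at 293, 349 and 324 in Mcph1-/- (-0.58, SE 0.41; adjusted p = 0.721, limma). At the other end, some members hardly moved between libraries. Mrps14 was read at 3282, 3369 and 3965 in WT and at 3820.4, 3983 and 4027 in Mcph1-/-, and Mrpl37 at 1787, 1649 and 1735 in WT and at 1968, 1628 and 1962 in Mcph1-/-.

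The 3 Mrps18 paralogs are related in sequence and occupy different places in the ribosome. Mrps18c takes the place of the bacterial protein, and the other paralogs are counted here with the mitochondria-specific proteins. Mrps18a, of the large subunit, was read at 1566, 1502 and 2236 in WT and at 1671, 2033 and 1954 in Mcph1-/-. Mrps18b was lower, at 639, 395 and 418 in WT and at 861, 570.1 and 685 in Mcph1-/-. Mrps18c, the classical small subunit paralog, was read at 1375, 1745 and 1236 in WT and at 2045, 1366 and 1502 in Mcph1-/-. Log2 fold changes were 0.11 (SE 0.23), 0.56 (SE 0.37) and 0.17 (SE 0.25) and the groups overlapped for each paralog. For Mrps18b, a copy (Gm13552) and an overlap of 638 exon bases make the count uncertain. Mrps30, the other protein of the large subunit with a small subunit name, was read at 603, 1332 and 1793 in WT and at 1172, 1703 and 1548 in Mcph1-/-, and its log2 fold change of 0.37 (SE 0.41) turned to -0.085 without WT replicate 1.

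The replicates of WT were further apart than those of Mcph1-/-. The SD of log2 values had a median over the members of 0.41 in WT and 0.25 in Mcph1-/-, and it was larger in WT for 55 of 77 members (71.4%). All tested genes showed the same order, with medians of 0.85 and 0.61 and a larger WT value for 63.9%. By subunit the share was 31 of 48 large (64.6%) and 24 of 29 small subunit genes (82.8%), and it held for all 10 mitochondria-specific small subunit genes. Across the members, which are not independent replicates, the Pearson correlation of log2 values was 0.859 to 0.890 between Mcph1-/- libraries and 0.383 to 0.835 between WT libraries. Over the 75 members read in every library these ranges were 0.854 to 0.884 and 0.613 to 0.751. A WT library held the lowest value for 54 members, with 17, 17 and 20 in WT replicates 1 to 3, and a Mcph1-/- library for 23, with 4, 10 and 9. The depth was lower in WT, and its part in this spread was not tested.

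**Figure D4:**
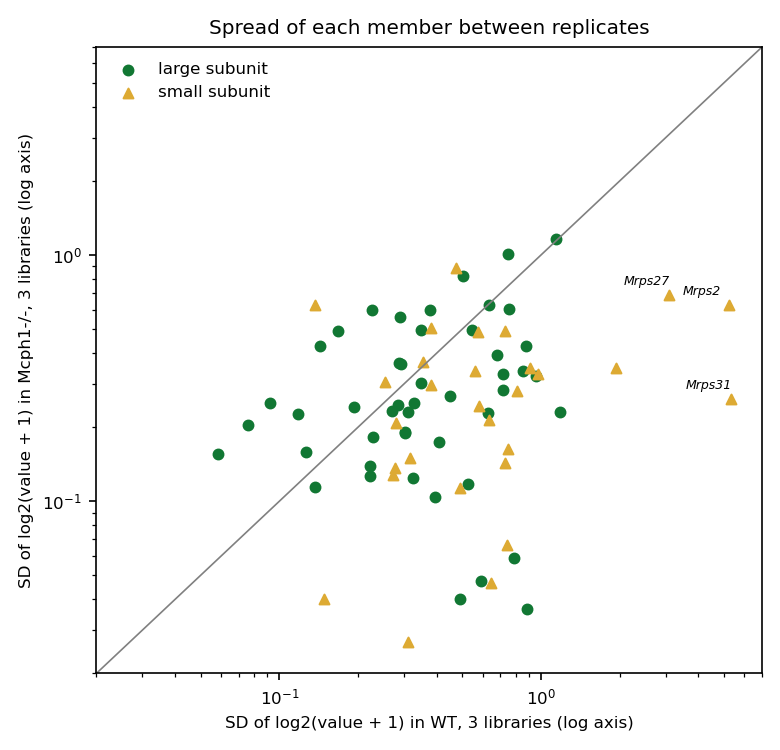
SD of log2(value + 1) over the 3 WT libraries (x axis) and the 3 Mcph1-/- libraries (y axis), both on log axes, for each of the 77 genes; circles are large and triangles small subunit genes, and the line marks equal SDs. Of the points, 55 lie below the line, and Mrps2, Mrps31 and Mrps27 lie far to the right.

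The members lie on 17 chromosomes, and many share their start region with a gene on the other strand. A gene starting head to head (at most 1000 bases upstream, or overlapping by at most 500) was found for 21 of 77 members (27.3%), against 13.4% of 9421 listed protein-coding genes. These make 20 distinct pairs, and in 11 of them the member and its partner had fold changes of the same sign. In 1 pair both genes are members: Mrpl46 and Mrps11 on chromosome 7, one of each subunit, whose RefSeq starts lie 42 bases apart. Mrps11, the counterpart of a bacterial protein of the platform of the small subunit, was read at 1388, 942 and 839 in WT and at 867, 1362 and 682 in Mcph1-/- with overlap (log2 fold change -0.15, SE 0.35), beside 0.81 for Mrpl46. Since 173 exon bases of the pair overlap, the reads there cannot be assigned without strand.

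Promoters, taken as 250 bases before to 50 bases after the RefSeq start (build GRCm38.p6, the assembly of mm10), were found for 68 of 77 members in 74 windows. They were searched on both strands for letters recognised by factors known from genes of mitochondria: NRF1 (GCGCATGC), YY1 (AAGATGGCG), the ETS family (ACTTCCGG), CREB (TGACGTCA) and the E-box of MYC (CACGTG). The letters do not contain one another. The ETS letters were in 14.9% of member windows, 3.89% of all 32851 windows and 9.05% of the 9980 windows of listed genes. The YY1 letters were in 10.8%, 1.40% and 3.44%, and the NRF1 letters in 9.46%, 2.71% and 5.68%. CREB letters were in 2.70%, 1.79% and 3.20%, and the E-box in 9.46%, 7.15% and 10.4%. The E-box was in 7 windows of 5 members, since overlapping windows of Mrpl2 hold the same match. At least 1 of the 5 sets of letters was in 41.9% of member windows, 15.2% of all windows and 27.6% of those of listed genes. The member windows with a match were 31, of 29 members. They were 23 of 47 large and 8 of 27 small subunit windows, with the Mrpl2 match counted once per window. A match is a description of letters, not of binding, and the median GC content was 58.8% in member windows and 52.7% in all. 5 windows are shown 5′ to 3′ on the gene's strand, with matches in capitals. The first 2 are the shared start of Mrpl46 (chr7:78783040-78783339, minus strand) and Mrps11 (chr7:78782881-78783180, plus strand), which overlap by 141 bases and read that stretch in opposite directions. Mrpl50 (chr4:49521034-49521333, minus strand) is the member with the smallest p and holds none of the letters, Mrps22 (chr9:98601630-98601929, minus strand) is the small subunit member with the smallest p and holds the ETS letters, and Mrpl32 (chr13:14612988-14613287, minus strand) holds the NRF1 letters 4 times, counting overlaps.
Mrpl46: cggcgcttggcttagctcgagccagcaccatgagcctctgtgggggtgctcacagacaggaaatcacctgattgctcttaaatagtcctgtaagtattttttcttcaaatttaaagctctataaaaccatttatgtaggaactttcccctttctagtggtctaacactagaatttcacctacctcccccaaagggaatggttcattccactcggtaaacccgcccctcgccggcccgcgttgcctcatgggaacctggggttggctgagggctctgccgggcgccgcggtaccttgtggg
Mrps11: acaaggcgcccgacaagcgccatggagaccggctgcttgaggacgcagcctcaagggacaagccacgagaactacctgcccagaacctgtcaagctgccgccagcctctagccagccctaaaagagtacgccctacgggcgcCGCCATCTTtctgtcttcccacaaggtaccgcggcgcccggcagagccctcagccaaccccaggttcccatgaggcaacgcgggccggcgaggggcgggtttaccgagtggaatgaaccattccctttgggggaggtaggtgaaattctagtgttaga
Mrpl50: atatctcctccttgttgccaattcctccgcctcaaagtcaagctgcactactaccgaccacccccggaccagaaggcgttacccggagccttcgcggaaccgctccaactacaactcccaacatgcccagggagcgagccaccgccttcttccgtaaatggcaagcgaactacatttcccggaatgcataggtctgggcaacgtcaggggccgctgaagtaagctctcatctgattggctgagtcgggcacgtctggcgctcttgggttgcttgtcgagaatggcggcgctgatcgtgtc
Mrps22: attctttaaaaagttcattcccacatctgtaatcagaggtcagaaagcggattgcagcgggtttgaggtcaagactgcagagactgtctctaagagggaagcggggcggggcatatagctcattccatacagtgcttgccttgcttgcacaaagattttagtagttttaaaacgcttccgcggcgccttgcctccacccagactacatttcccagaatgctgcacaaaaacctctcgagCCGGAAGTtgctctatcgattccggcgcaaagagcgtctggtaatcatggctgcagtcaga
Mrpl32: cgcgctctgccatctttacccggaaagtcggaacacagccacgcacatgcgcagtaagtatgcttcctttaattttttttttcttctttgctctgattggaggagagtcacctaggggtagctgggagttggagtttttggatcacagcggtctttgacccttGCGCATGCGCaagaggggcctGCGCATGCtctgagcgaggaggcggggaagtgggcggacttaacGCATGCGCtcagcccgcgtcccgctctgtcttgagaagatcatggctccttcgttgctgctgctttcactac
The capitals in Mrps11 are the YY1 letters on the other strand, and they lie outside the stretch shared with the Mrpl46 window, which holds no match. Mrpl32, whose protein is cut to its mature form by a protease of the inner mitochondrial membrane, was read at 621, 1409 and 1535 in WT and at 878, 1125 and 1297 in Mcph1-/-, and its log2 fold change was -0.023 (SE 0.39).

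Other genes of mitochondrial translation were taken from lists, and limma called none of them. DESeq2 called 3 in these lists and none in the lists without these 3 genes. They were Hars2 (adjusted p = 0.0019) of 18 synthetases and related enzymes, Hsd17b10 (0.022) of 21 transcription and RNA processing genes, and Mrm3 (0.023) of 25 assembly factors. Of the 5369 genes to which it gave an adjusted p, DESeq2 called 4.36%. Of 5 mitochondrial ribosome proteins with other names 3 were higher (median log2 fold change 0.11), and 2 by DESeq2 (median -0.0065). Aurkaip1 had the smallest p of these, with a log2 fold change of -0.26 (SE 0.24), and Chchd1 was at -0.16 (SE 0.22). Dap3, a GTP-binding protein of the small subunit, was read at 677, 945 and 714 in WT and at 901, 787 and 1068 in Mcph1-/- (0.24, SE 0.29). Of 11 translation factors 8 were higher (median 0.26, and 0.13 with DESeq2), and Mtif2, the initiation factor that places the first transfer RNA, was read at 287, 416 and 447 in WT and at 994, 596 and 708 in Mcph1-/-. The groups of Mtif2 did not overlap, with a log2 fold change of 0.99 (SE 0.39; adjusted p = 0.627, limma).

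Of 25 assembly factors 13 were higher (median 0.31), and 12 by DESeq2 (median -0.014). The 2 with the smallest p were lower. Mrm3, which methylates the ribosomal RNA of the large subunit, was read at 958, 1144 and 760.2 in WT and at 358, 103 and 26.8 in Mcph1-/- (log2 fold change -3.22, SE 0.88; adjusted p = 0.555, limma). Mtg2, a GTPase of large subunit assembly, was read at 267, 822 and 964 in WT and at 141, 263 and 226 in Mcph1-/- (log2 fold change -1.55, SE 0.62; adjusted p = 0.638, limma). Neither gene showed overlap between the groups.

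Of 18 listed aminoacyl-tRNA synthetases and related enzymes of mitochondria 12 were higher (median 0.45). Hars2, which charges the histidine transfer RNA, was read at 98.7, 112 and 187 in WT and at 579, 623 and 434 in Mcph1-/-, without overlap (log2 fold change 2.07, SE 0.56; adjusted p = 0.551, limma). Pars2, which charges the proline transfer RNA, was read at 0, 3.09 and 32.4 in WT and at 446, 378 and 154 in Mcph1-/-, also without overlap (log2 fold change 5.85, SE 1.68; adjusted p = 0.592, limma). Of 21 genes for mitochondrial transcription and RNA processing 12 were higher (median 0.29). Hsd17b10, a subunit of the mitochondrial RNase P, was read at 14832, 10098 and 7480 in WT and at 6966, 6321 and 5318 in Mcph1-/-, all below WT (log2 fold change -0.75, SE 0.25; adjusted p = 0.626, limma). Fastkd3 and Pnpt1 followed by p and were higher without overlap (4.92, SE 1.87, and 4.03, SE 1.93), each with a value of 0 in a WT library.

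The 2 genes for membrane insertion, Oxa1l and Cox18, had log2 fold changes of -0.33 (SE 0.57) and -0.81 (SE 0.35). Of 11 listed regulators of mitochondrial and ribosomal genes 4 were higher (median -0.059), with a median of -0.21 by DESeq2, while limma-voom gave 6 higher and a median of 0.017. Mycn, a transcription factor of the MYC family, was read at 1749, 1474 and 1211 in WT and at 509.9, 1204 and 580.3 in Mcph1-/-, where Mcph1-/- replicate 2 nearly met the lowest WT library (log2 fold change -1.04, SE 0.37; adjusted p = 0.626, limma). Next by p came Gabpb2, which was higher (1.36, SE 0.63), and Mxd4, which was lower (-1.27, SE 0.59), both without overlap. The 81 cytosolic ribosomal protein rows had 44 higher and a median of 0.027, against 51 of 77 and 0.15 for the mitochondrial ones. These 81 rows were taken by a symbol pattern, and their median level was 647 normalised read counts, against 1306 for the mitochondrial members. Near-identical copies were searched for the mitochondrial members only, so their part in this comparison was not tested. The RNAs of the mitochondrial ribosome come from the mitochondrial genome, and both are listed. The small subunit RNA, mt-Rnr1, was read at 727, 1176 and 3395 in WT and at 3332, 3072 and 1765 in Mcph1-/- (log2 fold change 0.88, SE 0.53; adjusted p = 0.686, limma). The large subunit RNA, mt-Rnr2, was read at 4995, 6010.5 and 16971 in WT and at 12719, 12209 and 10229.9 in Mcph1-/- (log2 fold change 0.55, SE 0.41; adjusted p = 0.726, limma). For both RNAs WT replicate 3 held the highest value of all 6 libraries and WT replicates 1 and 2 the lowest. The messages of the ribosomal protein genes did not share this pattern. Their sum over both subunits was lowest in WT replicate 3, at 1.14% of the library. It was 1.24% and 1.29% in the other WT libraries and 1.35%, 1.29% and 1.36% in Mcph1-/-.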

How the data were processed

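RNA-seq values of 11108 genes in 3 WT and 3 Mcph1-/- libraries were used. Tools named in the submitters' processing notes are HISAT2, featureCounts, Trim Galore 0.6.6 and DESeq2, with the build mm10. Neither annotation release nor strand setting is given in the sources used here. The authors deposited a signal that the values show to be read counts divided by a size factor (0.922 to 1.22): 100% are whole multiples of 1 read within 0.001 reads, so whole reads were recovered. Genes with a mean of at least 10 (10846) were tested with limma-trend 3.58.1 on log2(value + 1), two-sided, with Benjamini-Hochberg adjustment over all of them at a threshold of 0.05. Fold changes are on that scale, where the added 1 shrinks those of low genes and a library near 0 weighs more. For Mrps2 the log2 fold change was 4.09, although the group means were 357 in WT and 336 in Mcph1-/-. Alternatives were edgeR 4.0.16, DESeq2 1.42.0 and limma-voom on the recovered reads, other scalings, pseudocounts of 0.5 and 16, other filters, a replicate block and leaving out each library. The tests were checked on simulated reads.

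The members and gene lists were chosen with earlier results of these data known, so no test was run over a list. Values per library are given for the 6 large and 4 small subunit genes with the smallest p, the 3 highest and 2 lowest per kb of each subunit, the Mrps18 paralogs, Mrps30, Mrps36, members with 0 reads in a library and members called by any test. Of each other list up to 3 genes with the smallest p could be named. Mrps9, Mrps11, Mrps14, Mrps27, Mrps33, Mrpl12, Mrpl32, Mrpl37, Mrpl47, Mrpl48, mt-Rnr1 and mt-Rnr2 were named after their values were seen. Levels per kb use the union of exons of protein-coding transcripts in GENCODE vM21 (mm10), to which all 77 members matched by identifier. Copies are annotated genes with at least 95% identity to at least 50% of a member's coding sequence (blastn 2.17.0). In that annotation 32 members share exon bases with another gene, and without strand their counts are uncertain. Mrpl33 is not analysed here. Every gene of the table was read in 4 or more libraries.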

Additional observations from a re-analysis of the deposited data

How the results depend on the processing

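The count of members higher in Mcph1-/- stayed between 44 and 53 of 77, and lower between 24 and 33, when each library was left out in turn, and 40 of 77 members kept their sign in all 17 settings. Leaving out members with exon overlap gave 32 higher and 13 lower, and leaving out also those with a near-identical copy, an alternative chosen after seeing the data, gave 28 and 6. The share higher was 66.2% over all members, 71.1% without overlaps and 82.4% with neither, and of the 17 members with a copy 8 were higher (median -0.023). Members with an unadjusted p below 0.05 numbered 11 of 77 with DESeq2, beside 1178 of 10846 tested genes. In the leave-one-out fits they numbered 2 to 12 of 77. Without Mcph1-/- replicate 3 there were 2 members, beside 540 of 10828 genes. Without WT replicate 3 there were 4 members, beside 1237 of 10830 genes, and without WT replicate 1 there were 12, beside 841 of 10820 genes. Mrpl50 was among the members in every setting. No member was called with an adjusted p below 0.05 in the leave-one-out fits (0 to 0), and DESeq2 called 1, Mrpl50, with a log2 fold change of 1.61; it gave no adjusted p for 3 members. Over all genes 234 were called by DESeq2, 2 by edgeR with either scaling, 1 by limma-voom and 1 to 4 in the leave-one-out fits (1 without WT replicate 1 or 2, 2 without Mcph1-/- replicate 1), and genes with an unadjusted p below 0.05 numbered 540 to 1237, the lowest without Mcph1-/- replicate 3. The replicate block gave 4 members with an unadjusted p below 0.05, beside 745 of 10846 genes, and 3 called genes. Same-numbered libraries did not deviate together (correlations of -0.014, 0.018 and -0.030 for numbers 1, 2 and 3). The numbers were therefore not taken as pairs, and the block changed no call of a member. The cause of these changes was not tested.

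The median log2 fold change stayed between 0.14 and 0.21 for large and between 0.04 and 0.15 for small subunit genes in the leave-one-out fits, and their difference between 0.04 and 0.17. The median of all genes was -0.025 with DESeq2 against 0.076, at the same size factors. Signs turned without WT replicate 3 for Mrpl28 (-0.057; leave-one-out range -0.057 to 0.70), Mrpl34 (-0.052; to 0.29) and Mrps12 (-0.29; to 0.34), without WT replicate 1 for Mrps30 (-0.085; to 0.70), Mrps31 (-0.31; to 4.33) and Mrps36 (0.17; from -0.80), and without Mcph1-/- replicate 1 for Mrps12 (-0.052) and Mrps18c (-0.0047; to 0.31). With DESeq2 and with edgeR at median-of-ratios scaling Mrps12 was at -0.024 and Mrps2 at -0.091, and with edgeR at TMM scaling Mrps2 was at -0.061. With 3 libraries of 200 cells a genotype, values of low genes vary by sampling of transcripts as well as by read depth.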
